A study of Mus musculus with 12 samples.

Results

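Hair follicle stem cells (HFSCs) of wild type mice were compared between growth (anagen) and rest (telogen), with all genes of the deposited table described and the weight laid on pathways outside the cell cycle. The comparison took in 6 of the 12 libraries of the series, 3 labelled Anagen from mice at postnatal days 28 to 30 and 3 labelled Telogen from mice at postnatal days 50 to 52. All 6 came from wildtype C57BL/6J mice, with no transgene, deletion or treatment given in their labels, and age and hair cycle phase cannot be told apart in this design. The cells were sorted from trypsinized back skin for EpCAM and CD34, for a high level of α6-integrin and against Sca1, so the surface protein CD34 was itself part of the gate. The study gives a number of animals, but not whether it counts each phase or both, and the labels do not say whether a library pools several animals, so p-values measure the spread between these libraries, and in bulk RNA fewer cells of a type and less RNA per cell cannot be told apart.

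HFSCs sit in the bulge, the lowest permanent part of the follicle, where BMP and FGF18 signals hold them at rest through telogen. Signals from the dermal papilla, among them Wnt, BMP inhibitors, FGF and TGF-beta ligands, start a new hair, and the downward growing follicle is fed by proliferating progeny, the matrix and outer root sheath, while Sonic hedgehog from that progeny reaches the bulge. The stem cells rest on a basement membrane that they largely make themselves, and they are known for glycolytic metabolism and for lactate production.

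The table listed 21915 genes, 4202 of them at 0 in every library, and 13457 passed the filter on low values and were tested. Each value is an estimated count divided by the size factor of its library, called a normalized value here, and fold changes are log2 differences of value + 1, anagen minus telogen, with their standard error (SE). A gene was called when limma gave an adjusted p under 0.05. Genes that were not called may still differ, and small differences were mostly missed in simulated data, as given with the processing. The values summed to between 11370984 and 13186648 in a library, and the sequencing depth behind them is unknown. By this rule 971 genes (7.22% of those tested) were higher in anagen and 585 (4.35%) were higher in telogen, the background for the counts below. All anagen libraries lay above all telogen libraries in 18.1% of the tested genes and below them in 15.2%. The 3 anagen libraries resembled each other more (correlation of log2 values across genes 0.949 to 0.961) than the 3 telogen libraries did (0.91 to 0.927). Telogen replicate 1 stood apart in its keratins, with 50461 for Krt5 against 131957 to 186721 in the other 5. Every fit was repeated without each of the 6 libraries, and a call is said to be kept where it passed in all 6. The word does not cover other settings of the fit, and some kept calls ended without the intensity trend, as given at the end. Otherwise the libraries whose absence ended it are given as anagen 1 to 3 and telogen 1 to 3, with the highest adjusted p of the 6 fits. Values of different genes are not compared with each other, since they are not divided by transcript length, and fold changes of genes near 0 depend on the added 1.

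Of the 971 genes higher in anagen, 117 were in the cell cycle lists, 184 were in at least 1 of the 46 other pathway lists and 670 were in neither. Of the 585 higher in telogen, 1 was in the cell cycle lists and 71 in the others. Cell division marked the anagen cells, with 80 of 95 mitosis genes and 37 of 63 replication genes called higher. Mki67, a protein of dividing cells, had normalized values of 14954, 12975 and 10404 in anagen and 421, 431 and 276 in telogen (log2 fold change 5.10 ± 0.23, adjusted p = 1.95e-06). The anagen libraries were all far above the telogen libraries. Outside the cell cycle lists, the largest shares called higher in anagen were 29.3% for serine, folate and nucleotide synthesis, 28.6% for the basement membrane, and 28.0% each for cell junctions and for CDK inhibitors, p53 targets and D cyclins with their kinases. The largest shares called higher in telogen were 20.0% for angiogenic factors, 19.6% for proteoglycans and matricellular proteins and 18.8% for chemokines. Angiogenic factors and proteoglycans had larger shares called higher in anagen, 26.7% and 26.1%, and chemokines had 0.0%. These lists are small, and their shares carry no test.

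**Figure D1:**
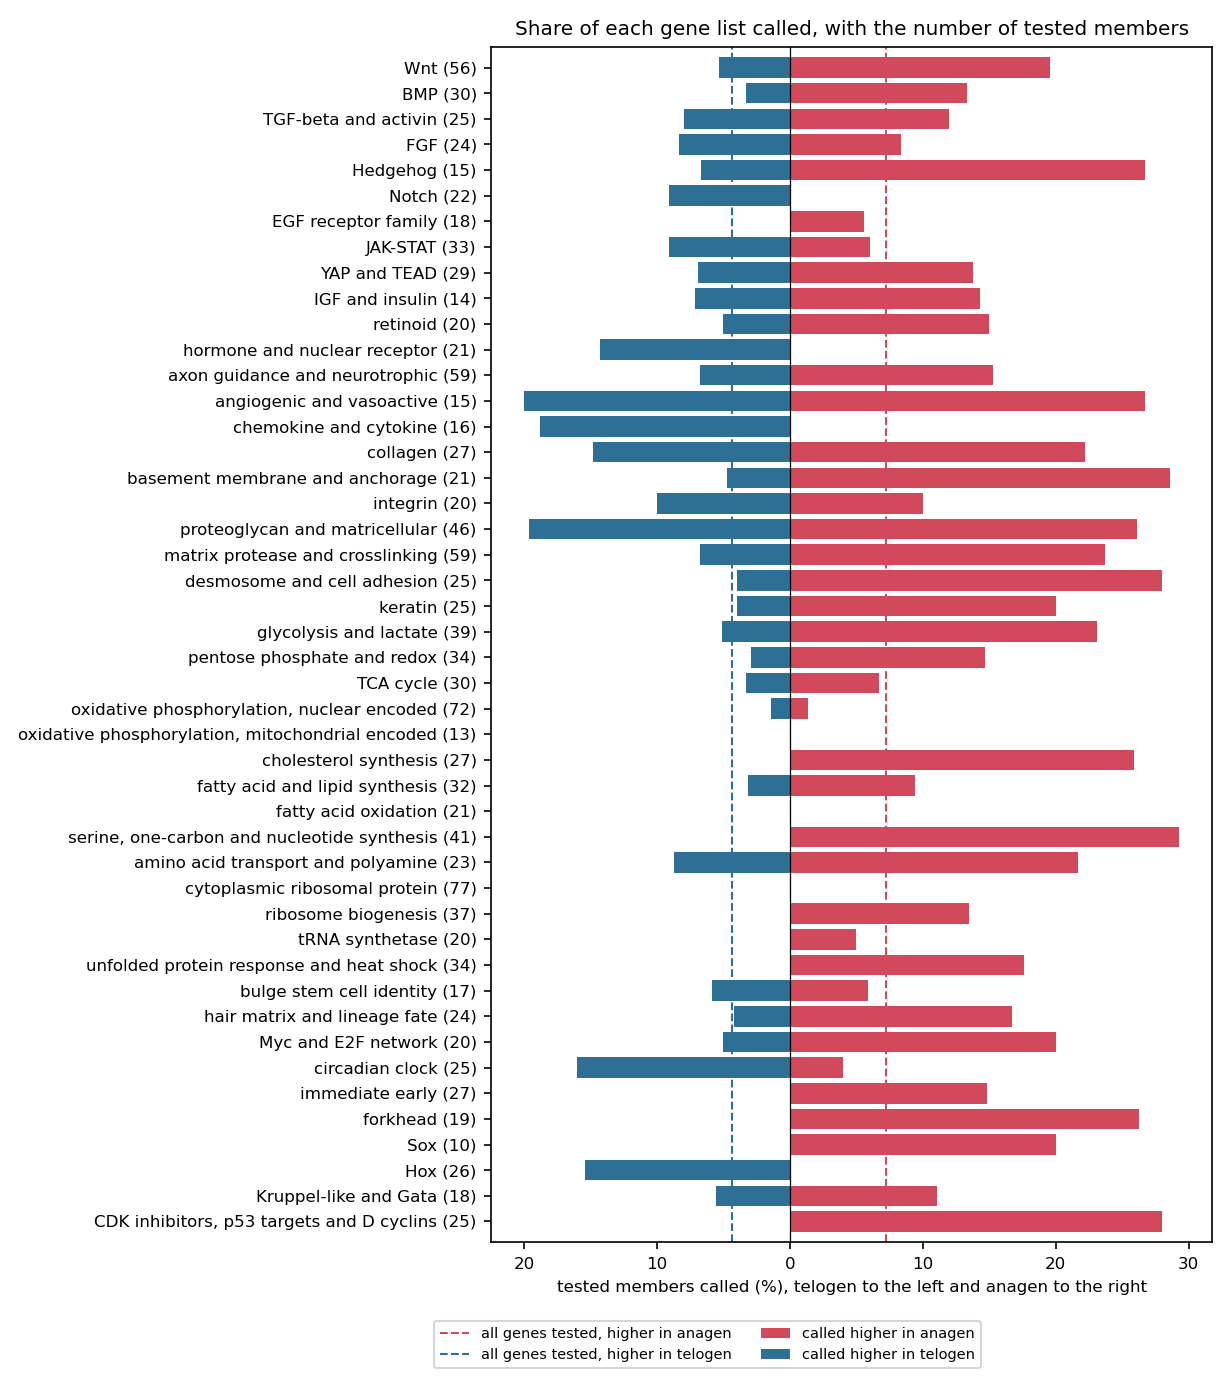
Percent of the tested members of each list that were called higher in anagen (red, to the right) or in telogen (blue, to the left), with tested members in parentheses and dashed lines at 7.22% and 4.35%, the shares over all genes tested. Cytoplasmic ribosomal proteins, fatty acid oxidation and the mitochondrial encoded subunits had no called member.

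The markers of the sort gate were checked first. Epcam ranged from 791 to 1864, while Ly6a, which encodes Sca1, did not exceed 28.5 in any library. Cd34, the gated stem cell marker, had 2955, 3233 and 4144 in anagen and 6433, 9159 and 8295 in telogen (log2 fold change -1.21 ± 0.20, adjusted p = 0.00382). Every telogen library was above every anagen library although both groups were sorted as CD34+. Itga6, which encodes α6-integrin, had 11655, 11474 and 10531 against 4177, 6579.6 and 6856 and was higher in anagen (log2 fold change 0.97 ± 0.21, adjusted p = 0.0144), a call lost without anagen 1 or 2 (adjusted p up to 0.0726). The bulge factors Lhx2 (-0.47, adjusted p = 0.178), Nfatc1 (-0.25, 0.41) and Tbx1 (-0.43, 0.182) and the receptor Lgr5 (-0.30, 0.3) did not pass the test, although only Lhx2 overlapped between the groups. Krt15, a bulge keratin, read 142406 in telogen replicate 1 and between 344674 and 422433 in the other libraries. 

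Markers of other cells moved only in part. Summed hair shaft and inner root sheath markers were 1404 to 2822 in anagen and 601.7 to 1124 in telogen, and 4 of 6 tested were called higher in anagen. Tchh, the inner root sheath protein trichohyalin, had 943, 665 and 295 against 44.7, 56.7 and 119 (log2 fold change 3.07 ± 0.48, adjusted p = 0.00271), and Krt28 had 36.2, 28.5 and 44.8 against 0, 2.22 and 0 (log2 fold change 4.64 ± 0.82, adjusted p = 0.00503). Inner bulge and companion layer markers summed to 12990 to 15500 in anagen and 5465 to 8026 in telogen. Of the 9 melanocyte markers, Dct, an enzyme of melanin synthesis, was higher in anagen at 709, 531 and 387 against 61.2, 134 and 94.01 (log2 fold change 2.51 ± 0.37, adjusted p = 0.00187), and Mitf, the melanocyte regulator, was lower at 685, 813 and 995 against 2801, 3125 and 2963 (log2 fold change -1.85 ± 0.20, adjusted p = 0.000254). The fibroblast list summed to 743.0 to 779.0 in anagen and 500.0 to 868.3 in telogen, and 2 of 7 tested members, Dcn and Col1a1, were called higher in anagen, with values given among the matrix genes. Col3a1, which was below the filter, had 48.5, 6.75 and 20.2 against 0, 0.423 and 0 and was higher in every anagen library, and Lum did not exceed 1.79. No myeloid, T cell, adipocyte, red blood cell or Merkel cell marker was called, and Epx, Nkg7, Cdh5, Lep, Sox2, Atoh1 and Krt20 were listed at 0 in all 6 libraries. Flg, a protein of differentiated epidermis, was called higher in anagen (597, 464 and 357 against 84.2, 67.5 and 47.1, log2 fold change 2.82 ± 0.36, adjusted p = 0.000682), and Tek, an endothelial receptor kinase (2.98, lost without anagen 1 or anagen 2 or anagen 3, up to 0.0726), and Awat2, a wax synthase of sebocytes (-2.64, lost without anagen 1, up to 0.0726), were called without their lists moving. The part of these cells in the results that follow was not tested.

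**Figure D2:**
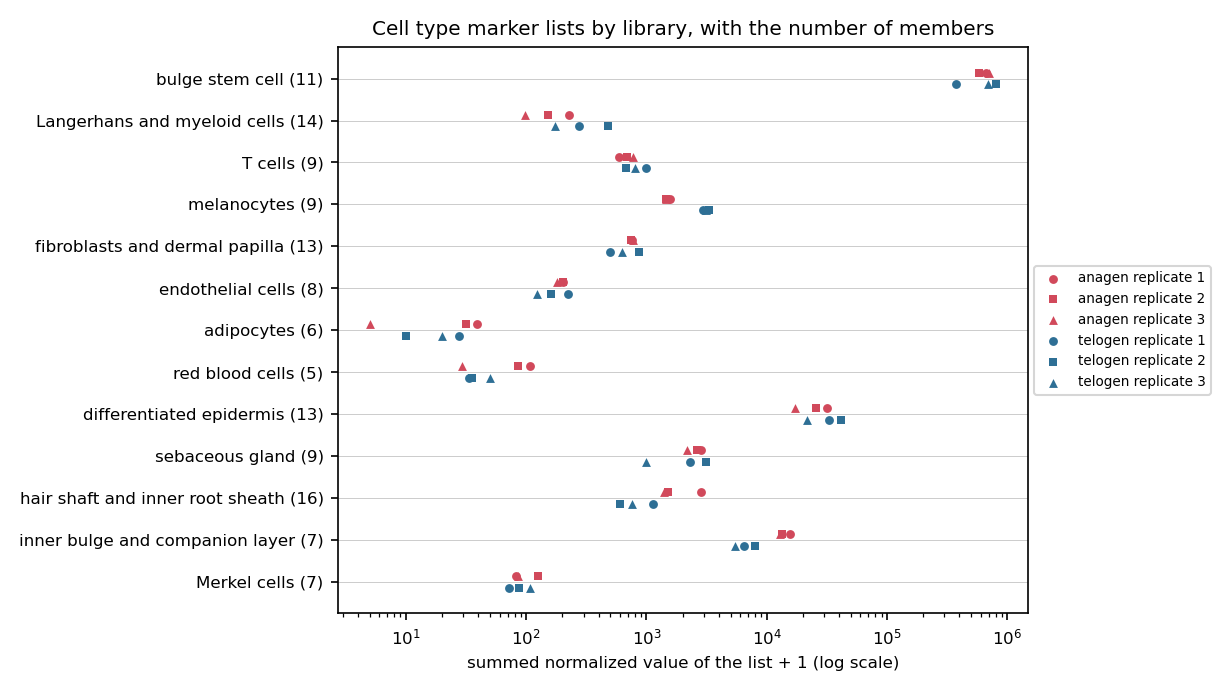
Summed normalized values of each cell type marker list + 1 in each library, on a log axis, for anagen (red) and telogen (blue), with list sizes in parentheses. Inner bulge and companion layer and hair shaft lists lie higher in the 3 anagen libraries, and most other lists overlap. The melanocyte list lies higher in the 3 telogen libraries, where Mitf makes up most of its sum. Of its 6 tested members, 4 had positive fold changes.

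Wnt ligands bind Frizzled and Lrp receptors and stabilise β-catenin, which acts with Tcf and Lef factors. Of 56 tested members of the pathway, 11 were called higher in anagen and 3 in telogen, with a median log2 fold change of 0.21 against 0.0127 over all genes tested. Receptors split. Ror1, a receptor of Wnt5a, had 648, 714 and 446 in anagen and 70.95, 114 and 98.8 in telogen (log2 fold change 2.66 ± 0.32, adjusted p = 0.000534). Lgr4, which binds R-spondins, had 8110.0, 8409.8 and 8595 against 3483, 4436 and 5009 (log2 fold change 0.97 ± 0.18, adjusted p = 0.00717), and neither gene overlapped between the groups. Fzd2 went the other way, with 1171, 1287 and 1924 in anagen and 5054, 4264 and 3305 in telogen (log2 fold change -1.54 ± 0.24, adjusted p = 0.00252). Among the ligands, Wnt7b stood at 163, 172 and 255 against 25.2, 51.1 and 54.4 (log2 fold change 2.20 ± 0.44, adjusted p = 0.00976), and its adjusted p was 0.0567 without anagen 3. Ccnd1, encoding cyclin D1, which the list holds as a target, was higher in anagen at 4497, 3557 and 3260.3 against 1020.0, 1862 and 1026 (log2 fold change 1.58 ± 0.26, adjusted p = 0.00312). The feedback target Axin2 (-0.45, adjusted p = 0.485) and the factor Lef1 (-0.43, 0.616) did not pass the test, and their libraries overlapped. Ror1, Lgr4, Ccnd1 and Fzd2 kept their calls. The remaining Wnt calls in anagen were Wnt5a, a ligand that signals without β-catenin (2.20, held only without telogen 1, up to 0.103), Wnt6, a ligand (2.71, lost without any 1 of the libraries, up to 0.199), Tcf7, a partner of β-catenin (1.90, lost without anagen 1 or anagen 2, up to 0.0754) and Lrp5, a Wnt coreceptor (0.99, held only without telogen 3, up to 0.194). They also took in Sfrp1, a secreted Wnt inhibitor (0.85, lost without anagen 2 or anagen 3, up to 0.0616), Lgr6, an R-spondin receptor (0.81, lost without anagen 1 or anagen 2 or anagen 3, up to 0.122) and Ctnnb1, which encodes β-catenin (0.72, lost without anagen 1 or anagen 2 or anagen 3, up to 0.0977). In telogen they were Lrp4, a receptor that binds Wnt inhibitors (-1.02, lost without anagen 1 or anagen 2 or anagen 3, up to 0.071) and Fzd5, a Frizzled receptor (-0.86, held only without telogen 3, up to 0.144).

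BMP and TGF-beta ligands act through receptor kinases and Smad proteins, and secreted inhibitors catch the ligands. In the BMP list 4 of 30 tested members were called higher in anagen and 1 in telogen. Gdf10, a ligand of this superfamily, had 1165, 1455 and 1244 in anagen and 183, 80.01 and 116 in telogen (log2 fold change 3.41 ± 0.32, adjusted p = 9.8e-05). Sostdc1, an inhibitor of both BMP and Wnt signals, had 18016, 15902 and 18195 against 5396, 3836 and 4254 (log2 fold change 1.96 ± 0.18, adjusted p = 0.000105), and Fstl1, a follistatin-like protein, had 3149.6, 3635 and 3361 against 1197, 1920.0 and 1638 (log2 fold change 1.12 ± 0.21, adjusted p = 0.00686). All 3 genes separated the groups without overlap and kept their calls. Grem1, a BMP inhibitor, was higher in telogen at 7550.3, 9792 and 12755 against 20491, 22684 and 16229.8 (log2 fold change -1.0 ± 0.22, adjusted p = 0.0159), and its adjusted p reached 0.0873 without anagen 1 or 2. Also called in anagen was Id4, a BMP target (0.95, lost without anagen 1 or anagen 2 or anagen 3, up to 0.119). Bmp6 (1.24, adjusted p = 0.0566), the receptor Bmpr1a (0.56, 0.065), the activin inhibitor Fst (-0.55, 0.0632) and the target Id1 (-0.65, 0.291) missed the threshold.

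Of 25 tested members of the TGF-beta and activin list, 3 were called higher in anagen and 2 in telogen. Tgfb3 had 1157, 1011 and 1094 in anagen and 177, 124 and 84.8 in telogen (log2 fold change 3.13 ± 0.30, adjusted p = 0.000128), so that every anagen library held several times the value of any telogen library. Inhbb, a subunit of activins and inhibins, had 740.5, 811 and 665 against 221, 292 and 296 (log2 fold change 1.46 ± 0.25, adjusted p = 0.00385). Ltbp2, a latent TGF-beta binding protein of microfibrils, was higher in telogen at 449.6, 563 and 821 against 1786, 1627 and 2591 (log2 fold change -1.72 ± 0.27, adjusted p = 0.00265). These 3 calls were kept. Less stable were Pmepa1, a TGF-beta target that damps the signal (2.53, lost without anagen 2, up to 0.0563) and Tgfbr3, the coreceptor betaglycan (-1.67, held only without telogen 1 or telogen 3, up to 0.135).

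FGF receptors were called in opposite directions. Fgfr2, the receptor for FGF7 and FGF10 in its epithelial form, had 7152, 8058 and 6886 in anagen and 3417, 3890.5 and 4119 in telogen (log2 fold change 0.95 ± 0.17, adjusted p = 0.00544), whereas Fgfr1 had 1243, 1454 and 1309.5 in anagen and 3068, 3323 and 3928 in telogen (log2 fold change -1.36 ± 0.19, adjusted p = 0.00113). Neither receptor overlapped between the groups, and both calls were kept. The other called members were Spred2, an inhibitor of Ras signalling (0.94, held only without telogen 2, up to 0.162) and Fgf1, a ligand (-1.35, lost without anagen 1, up to 0.0705). Fgf18, the ligand known to hold the bulge at rest, had 237, 426 and 402 against 493, 1133 and 620.2 and a log2 fold change of -1.03 ± 0.35 that missed the threshold (adjusted p = 0.081). Over the list 2 of 24 tested members were higher in anagen and 2 in telogen.

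In the Hedgehog pathway, Ptch1 is both the receptor that holds Smo in check and a direct target of the pathway. It had 7823, 7914 and 5473 in anagen and 1738, 1806 and 1465 in telogen (log2 fold change 2.07 ± 0.20, adjusted p = 0.000133), with all anagen libraries above all telogen libraries. The transcription factor Gli1, another target, had 297, 248 and 145 against 102, 54.5 and 83.8 (log2 fold change 1.49 ± 0.41, adjusted p = 0.0387), but its call held only without anagen 3 or telogen 1 (adjusted p up to 0.181). Shh itself did not exceed 23.3 in any library, and the membrane protein Smo differed by 0.22 ± 0.21 (adjusted p = 0.547). In all 4 of 15 tested members were higher in anagen, and Ptch1 alone among them kept its call. Also called in anagen was Gli2, the main activator among Gli factors (0.74, lost without any 1 of the libraries, up to 0.203). The 1 member called in telogen was Gli3, the Gli factor that mostly represses (-0.77, held only without telogen 2, up to 0.146).

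YAP and TAZ are coactivators that enter the nucleus when the Hippo kinases are inactive and act with TEAD factors. Wwtr1, which encodes TAZ, had 1640.0, 1510.2 and 1719 in anagen and 778, 861 and 659 in telogen (log2 fold change 1.09 ± 0.20, adjusted p = 0.00615), and Yap1 had 2341, 1944 and 1774 against 3526, 2915 and 2876 (log2 fold change -0.62 ± 0.19, adjusted p = 0.0571). The targets in the list pointed to telogen. Ccn2, a matricellular protein, had 873, 985 and 1340.3 in anagen and 8972, 5761 and 4995 in telogen (log2 fold change -2.60 ± 0.25, adjusted p = 0.000129), and Axl, a receptor kinase, had 627, 798 and 665 against 1588, 1549 and 1857 (log2 fold change -1.26 ± 0.20, adjusted p = 0.00305). Ccn1, the other CCN target, had 3109, 3387 and 2819 against 10796, 7587 and 2904, with overlapping libraries and an adjusted p of 0.115. Of 29 tested members, 4 were called higher in anagen, none of them among the targets, and 2 in telogen, both targets. Besides Wwtr1, the calls in anagen were Amotl1, an angiomotin that binds YAP (1.06, lost without anagen 1 or anagen 2 or anagen 3, up to 0.0718), Tead1, a TEAD factor (1.05, lost without anagen 1 or anagen 2, up to 0.0562) and Mob1b, an activator of the Hippo kinases (0.68, held only without telogen 1, up to 0.227). RefSeq promoters (250 bases before to 50 after the start, GRCm38.p6) were at hand for 10640 of 13452 tested symbols. A search of both strands for the core of the TEAD site, GGAATG, found it in 15 of 25 list members with a promoter and in 14.5% of all 10640 symbols. Here and below a gene is counted if any of its promoters held the motif, so shares of promoters are shares of genes. The stretch of the Axl promoter that holds it, with the match in capitals 233 bases upstream of the start (chr7:25788884-25788983, minus strand), is printed as an example. Promoters were at hand for 3 of the 4 members called in anagen and 1 of the 2 called in telogen. None was at hand for Ccn2, so it was not searched. Of those searched, Wwtr1, higher in anagen, and Axl, higher in telogen, held the core. So did 90 of 748 promoters of genes called higher in anagen and 65 of 463 of those higher in telogen.
Axl: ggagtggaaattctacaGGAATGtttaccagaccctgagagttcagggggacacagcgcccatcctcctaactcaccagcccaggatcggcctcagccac

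The retinoid pathway held the gene with the highest fold change in anagen outside the cell cycle lists. Lrat, which esterifies retinol for storage, had 2270.2, 3062 and 2439.7 in anagen and 6.80, 20.00 and 12.7 in telogen (log2 fold change 7.62 ± 0.39, adjusted p = 2.85e-06). Dhrs9, a retinol dehydrogenase, was also higher in anagen at 176, 325 and 308 against 9.71, 26.7 and 73.4 (log2 fold change 3.22 ± 0.64, adjusted p = 0.00897), and so was the receptor Rara at 518, 402 and 495 against 158, 159 and 174 (log2 fold change 1.51 ± 0.27, adjusted p = 0.00508). Cyp26b1, which degrades retinoic acid, was higher in telogen at 765, 1025 and 1283 against 4169, 4236 and 2502 (log2 fold change -1.82 ± 0.26, adjusted p = 0.00159). All 4 retinoid genes were free of overlap between the groups and kept their calls, out of 20 tested members.

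Other signalling lists were sparser. Of 8 tested genes whose products bind or process insulin-like growth factors or bind their mRNA, 2 were called, both higher in anagen, Igfbp4 at 4549.7, 3688 and 5575 against 1142, 1694 and 1616 (log2 fold change 1.63 ± 0.22, adjusted p = 0.00115) and Igfbp5 at 7394, 11206 and 11089 against 1656, 3666 and 3386 (log2 fold change 1.83 ± 0.30, adjusted p = 0.00308). In telogen this list had Irs1, an adaptor of the insulin receptor (-1.01, held only without telogen 1, up to 0.0977). In the JAK-STAT list, where 2 of 33 tested members were higher in anagen and 3 in telogen, Il31ra, a receptor subunit for interleukin 31, had 2336, 2664 and 2646 in anagen and 7050.1, 9577 and 12219.9 in telogen (log2 fold change -1.88 ± 0.21, adjusted p = 0.000347) with no overlap. Stat3 did not pass (-0.46, adjusted p = 0.219). The others were Pim1, a kinase induced by STATs (1.84, held only without telogen 1 or telogen 3, up to 0.135) and Socs3, a feedback inhibitor of STAT3 (1.33, held only without telogen 1, up to 0.138). Lower in anagen were also Socs2, a suppressor of cytokine signalling (-2.45, lost without anagen 2 or telogen 3, up to 0.0671) and Stat6, the factor activated by interleukin 4 (-1.11, lost without anagen 1 or anagen 2 or anagen 3, up to 0.093). In the Notch list 0 of 22 were called higher in anagen and 2 in telogen. Its targets Hes1 and Hey1 had higher values in every anagen library than in any telogen library but missed the threshold (log2 fold changes 1.85 ± 0.55 and 2.54 ± 0.84, adjusted p = 0.0528 and 0.0758), and Notch1 overlapped (-0.70, 0.239). Called in telogen were Numbl, an inhibitor of Notch (-1.83, held only without telogen 1 or telogen 3, up to 0.0936) and Maml3, a Notch coactivator (-0.89, held only without telogen 1, up to 0.136). In the EGF receptor family 1 of 18 was called, Nrg1, a ligand of ErbB3 and ErbB4 (2.99, lost without anagen 1, up to 0.0832), and Egfr itself stood at -0.17 (adjusted p = 0.592). All 3 called nuclear receptors, of 21 tested, were higher in telogen, and the clock repressor Nr1d1, described below with the clock, was the 1 that kept its call. The other nuclear receptors were Thra, a thyroid hormone receptor (-1.45, lost without anagen 1, up to 0.0521) and Nr3c1, the glucocorticoid receptor (-0.75, lost without anagen 1 or anagen 2, up to 0.094).

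Axon guidance and neurotrophic genes split as well, 9 of 59 higher in anagen and 4 in telogen. Ephb1, a receptor for ephrin-B ligands, had 392, 399 and 428 in anagen and 23.2, 21.3 and 24.2 in telogen (log2 fold change 4.09 ± 0.36, adjusted p = 7.67e-05), and Sema5a, a semaphorin, had 4207, 5100.1 and 4410.2 against 1819.6, 1045 and 1563 (log2 fold change 1.66 ± 0.23, adjusted p = 0.00109). On the telogen side were Ntrk2, the receptor of BDNF, at 81.3, 91.7 and 76.3 against 317, 290.0 and 256 (log2 fold change -1.78 ± 0.32, adjusted p = 0.00531), the ephrin Efna3 at 447, 557 and 962 against 2604, 2157 and 1353 (log2 fold change -1.66 ± 0.32, adjusted p = 0.00761) and the semaphorin receptor Plxna2 at 5269, 6431 and 6151 against 9850.2, 14861 and 14674 (log2 fold change -1.12 ± 0.20, adjusted p = 0.00566). The groups did not overlap for any of these 5 genes. All 5 kept their calls. Other guidance genes called in anagen were Ntn1, the guidance cue netrin-1 (3.87, lost without anagen 1 or anagen 2 or anagen 3, up to 0.103), Sema4c, a semaphorin (2.63, lost without anagen 3, up to 0.0517) and Ret, the GDNF receptor kinase (2.16, held only without telogen 1, up to 0.16). To these came Nrp2, a semaphorin coreceptor (1.83, held only without telogen 1, up to 0.219), Robo1, a Slit receptor (1.41, lost without anagen 1 or anagen 2, up to 0.103) and Neo1, a netrin receptor (0.98, lost without anagen 2 or anagen 3, up to 0.0651). A further call in telogen was Gfra2, a coreceptor for neurturin (-0.82, held only without telogen 1, up to 0.109).

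Secreted factors for vessels and leukocytes moved in both directions. Vegfa had 267, 255 and 220.4 in anagen and 80.00, 45.9 and 62.6 in telogen (log2 fold change 1.99 ± 0.36, adjusted p = 0.00598). Angptl7, an angiopoietin-like protein, had 41.05, 76.8 and 59.5 in anagen and 555, 592 and 621 in telogen (log2 fold change -3.34 ± 0.33, adjusted p = 0.00015), and Cxcl12, the ligand of Cxcr4, had 184, 246 and 126 against 653, 1020.5 and 809.6 (log2 fold change -2.18 ± 0.31, adjusted p = 0.00148). Edn2, the vasoconstrictor endothelin-2, had a value of 0 in each telogen library and of 11.02, 30.2 and 34.4 in anagen (adjusted p = 0.00761), a call lost without anagen 2 or 3 (up to 0.0651). In all 4 of 15 tested members of the angiogenic and vasoactive list were higher in anagen and 3 in telogen. The others in anagen were Adm, the vasodilator adrenomedullin (3.53, held only without telogen 1, up to 0.155) and Pdgfc, a PDGF ligand (1.23, held only without telogen 1 or telogen 3, up to 0.125). The other in telogen was Angptl2, an angiopoietin-like protein (-0.99, held only without anagen 3 or telogen 1, up to 0.115). The chemokine Cxcl12 kept its call and was counted in the angiogenic list, not in the chemokine list. In the chemokine list 3 of 16 tested members were called, all higher in telogen, and none kept its call. They were Cxcl16, a chemokine with a membrane-bound form (-1.28, lost without anagen 1 or anagen 3 or telogen 3, up to 0.0905), Ccl27a, a chemokine of keratinocytes that draws T cells (-1.25, held only without anagen 3 or telogen 1, up to 0.15) and Cxcl14, a chemokine of epithelia (-0.84, lost without anagen 1 or anagen 2 or telogen 2, up to 0.131).

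**Figure D3:**
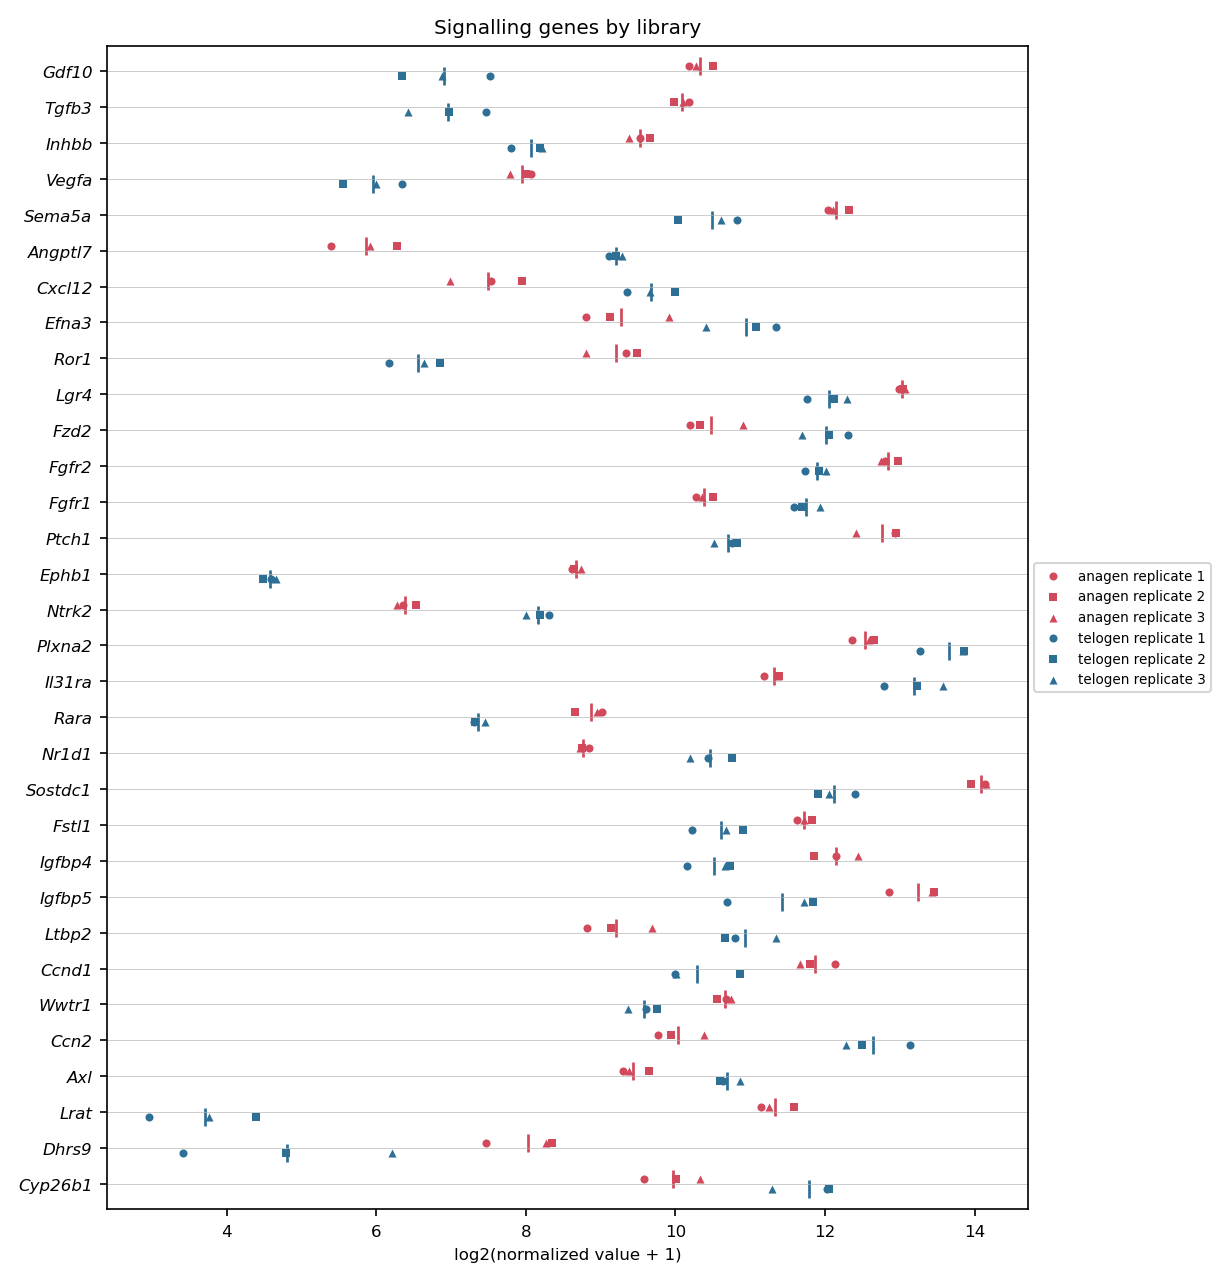
Log2(normalized value + 1) of signalling genes in each library, anagen in red and telogen in blue, with a short bar at the mean of each group of 3. The genes run from ligands through receptors to inhibitors, targets and retinoid enzymes, and for each gene drawn the 2 groups do not overlap.

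Collagens form fibrils, networks and the cords of basement membranes. Of 27 tested, 6 were called higher in anagen and 4 in telogen. The chains of collagen V moved apart, Col5a1 with 550.1, 743 and 702 in anagen and 72.96, 87.8 and 49.4 in telogen (log2 fold change 3.26 ± 0.33, adjusted p = 0.000152) and Col5a2 with 359, 459 and 521 in anagen and 1187, 1036 and 1352 in telogen (log2 fold change -1.42 ± 0.23, adjusted p = 0.00322). Col14a1, a collagen that associates with fibrils, had 290.0, 279.9 and 261 against 46.4, 17.3 and 23.4 (log2 fold change 3.33 ± 0.45, adjusted p = 0.00103), and Col4a5, a chain of basement membrane collagen IV, had 835, 1026 and 901 against 239, 204 and 369 (log2 fold change 1.81 ± 0.27, adjusted p = 0.00218). These 4 kept their calls and did not overlap. Col1a1, which the fibroblast marker list also holds, was higher in anagen at 214, 227 and 419 against 65.5, 45.5 and 89.9 (log2 fold change 2.06 ± 0.41, adjusted p = 0.00928), and lost its call without anagen 3 (adjusted p = 0.0554). Its partner chain Col1a2 had 154, 229 and 172 against 233, 599.7 and 346 (adjusted p = 0.108). Col17a1, a hemidesmosome collagen needed for the stem cell pool, stood at -0.53 (adjusted p = 0.083). Further collagens called in anagen were Col27a1, a fibrillar collagen (1.66, held only without telogen 1, up to 0.171) and Col4a4, a collagen IV chain (1.52, lost without anagen 1 or anagen 2 or anagen 3, up to 0.0876). Those in telogen were Col20a1, a collagen that associates with fibrils (-2.94, held only without anagen 1, up to 0.0959), Col8a2, a network collagen (-1.35, held only without telogen 1, up to 0.107) and Col6a2, a chain of microfibrillar collagen VI (-0.94, held only without telogen 1 or telogen 2, up to 0.107). The summed fibroblast markers overlapped between the groups, with 2 of 7 tested called higher in anagen, and their part in the matrix results was not tested.

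Basement membrane genes leaned to anagen, with 6 of 21 tested called higher there and 1 in telogen (median 0.56). Npnt, nephronectin, which the bulge deposits for the arrector pili muscle, had 14139.8, 17168 and 17771 in anagen and 8257, 6895 and 7388 in telogen (log2 fold change 1.12 ± 0.18, adjusted p = 0.00268). Frem2, of the Fraser complex that anchors epidermis, had 3969.5, 4871 and 4477 against 1852, 1295 and 1874 (log2 fold change 1.42 ± 0.20, adjusted p = 0.00152), and Pxdn, the peroxidase that cross-links collagen IV, had 422, 462 and 405 against 174, 93.8 and 91.04 (log2 fold change 1.90 ± 0.33, adjusted p = 0.00477). Each of them was higher in all anagen than in all telogen libraries and kept its call. Also called in anagen were Fras1, a partner of Frem2 (2.23, lost without anagen 2, up to 0.0536), Hspg2, perlecan (1.89, held only without telogen 3, up to 0.122) and Lamc1, the laminin γ1 chain (0.92, held only without telogen 1 or telogen 2, up to 0.104). The call in telogen was Dst, dystonin of hemidesmosomes (-0.69, held only without telogen 1, up to 0.169). Among integrins 2 of 20 were higher in anagen and 2 in telogen. Itgb6, the β-subunit of the αvβ6 integrin that frees latent TGF-beta, had 7783, 8316 and 8290.3 in anagen and 2526, 2637 and 3024 in telogen (log2 fold change 1.58 ± 0.17, adjusted p = 0.000214), and was the integrin that kept its call. Integrins called in telogen were Itga4, a fibronectin receptor subunit (-1.61, lost without anagen 1, up to 0.0749) and Itga2, a collagen receptor subunit (-0.93, held only without telogen 1, up to 0.0954). Itga6, given above, was the other in anagen. Itgb4 (-0.56, adjusted p = 0.0759) and Itgb1 (0.44, 0.132), subunits of the main epithelial integrins, did not pass.

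Proteoglycans and matricellular proteins were the list with the most calls in telogen, 9, beside 12 in anagen, of 46 tested, and 6 of the telogen and 7 of the anagen calls were kept. On the anagen side, Bgn, the small proteoglycan biglycan, had 5023, 4603 and 6868 in anagen and 156, 191 and 224 in telogen (log2 fold change 4.84 ± 0.23, adjusted p = 2.12e-06). Prelp, from the same leucine-rich family, had 337, 367 and 417 against 19.3, 46.3 and 53.96 (log2 fold change 3.32 ± 0.44, adjusted p = 0.000895), and Tnc, tenascin-C, had 6952, 7897 and 7311 against 2107, 2548 and 2909 (log2 fold change 1.56 ± 0.18, adjusted p = 0.000401). Cd44, the hyaluronan receptor, had 5618, 6327 and 6358 against 1694, 2888 and 2049.9 (log2 fold change 1.5 ± 0.21, adjusted p = 0.00152), while Has2, the enzyme that makes hyaluronan, was higher in telogen at 184, 215 and 262 in anagen and 1003, 1245 and 1276 in telogen (log2 fold change -2.41 ± 0.24, adjusted p = 0.000167). The gene of fibrillin-1, Fbn1, was listed at 0 in telogen replicates 1 and 2 and had 132, 83.1 and 56.02 against 0, 0 and 5.06 (log2 fold change 5.56 ± 0.86, adjusted p = 0.00244).

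On the telogen side stood Postn, the gene of the matricellular protein periostin, with 27256, 33642 and 36085 in anagen and 137916, 183492 and 162156 in telogen (log2 fold change -2.32 ± 0.20, adjusted p = 7.5e-05). The thrombospondins followed, Thbs1 with 452, 412 and 382 against 2123, 3215 and 2439 (log2 fold change -2.62 ± 0.22, adjusted p = 5.48e-05) and Thbs2 with 122, 83.6 and 86.9 against 841, 984 and 786 (log2 fold change -3.16 ± 0.28, adjusted p = 7.83e-05). Tnxb, tenascin-X, had 15.4, 13.4 and 6.39 against 90.3, 127 and 94.00 (log2 fold change -3.10 ± 0.54, adjusted p = 0.00473), opposite to tenascin-C, and Ecm1 had 518, 552 and 604 against 2029, 1691 and 1336 (log2 fold change -1.57 ± 0.22, adjusted p = 0.00135). For all 5 genes the lowest telogen library was above the highest anagen library. Dcn, decorin, which is also a fibroblast marker, was called higher in anagen at 38.5, 27.2 and 15.7 against 0, 0.644 and 1.47, but not without anagen 1 or 2 (adjusted p up to 0.0973). Likewise less stable in anagen were Vcan, the proteoglycan versican (4.59, lost without anagen 3, up to 0.0572) and Spon1, the matrix protein F-spondin (2.59, held only without telogen 3, up to 0.169). The same held in telogen for Sdc3, a syndecan (-2.22, held only without telogen 2 or telogen 3, up to 0.13), Fmod, fibromodulin (-2.11, held only without telogen 1, up to 0.094) and Aspn, asporin (-1.38, lost without anagen 2, up to 0.056). The glypican Gpc4 (1.10 ± 0.19, adjusted p = 0.00476) and Matn2 (1.05 ± 0.20, 0.00738), a matrilin, kept smaller calls in anagen.

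Matrix proteases and their partners gave 14 calls in anagen and 4 in telogen of 59 tested. Timp3, an inhibitor of metalloproteases, had 2204, 1977 and 1606 in anagen and 484, 421 and 312 in telogen (log2 fold change 2.26 ± 0.24, adjusted p = 0.000207), and is also held in the inner bulge marker list. Adamts17 had 503, 737 and 883 against 78.99, 161 and 166 (log2 fold change 2.42 ± 0.36, adjusted p = 0.0019). Adamts20 was listed at 0 in every telogen library and at 30.1, 25.9 and 57.7 in anagen (adjusted p = 0.00255). P3h2, a prolyl hydroxylase of collagens, was higher in telogen at 2074, 2880.1 and 3453 against 5679, 7783 and 6069 (log2 fold change -1.23 ± 0.22, adjusted p = 0.00547). These 4 kept their calls, and all their anagen libraries lay apart from their telogen libraries. The next in anagen were Adamts15, an aggrecanase (4.6, lost without anagen 1, up to 0.0582) and Plod2, a lysyl hydroxylase of collagen (3.21, lost without anagen 1 or anagen 2, up to 0.0968). After them came Adamts12, a secreted metalloprotease (2.96, lost without any 1 of the libraries, up to 0.191) and Serpinf1, which encodes PEDF (2.40, held only without anagen 3 or telogen 3, up to 0.191). Other telogen calls were Adamts10, a metalloprotease that binds fibrillin (-2.23, lost without anagen 1 or anagen 2, up to 0.0688), Adam15, a membrane metalloprotease (-1.66, held only without anagen 3 or telogen 3, up to 0.111) and Tgm5, a transglutaminase (-0.71, held only without telogen 1, up to 0.152).

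Gap junction genes were among the calls in anagen. Gja1, encoding connexin 43, had 10365, 7457 and 7365 in anagen and 1982, 2460.4 and 1846 in telogen (log2 fold change 1.99 ± 0.20, adjusted p = 0.000167), Gjb2 had 209.9, 179 and 68.8 against 6.77, 13.3 and 11.4 (log2 fold change 3.63 ± 0.58, adjusted p = 0.00296) and Gjb6 had 98.7, 80.5 and 103 against 0, 0 and 5.76 (log2 fold change 5.64 ± 0.84, adjusted p = 0.00202). The desmosome protein Pkp1 had 2672, 3063 and 2459 against 1012, 1018 and 1355 (log2 fold change 1.28 ± 0.20, adjusted p = 0.00263), whereas Cdh13, a cadherin held to the membrane by a lipid anchor, was higher in telogen at 328, 401 and 406 in anagen and 2292, 3008 and 2360.4 in telogen (log2 fold change -2.75 ± 0.21, adjusted p = 3.26e-05). These 5 genes kept their calls and did not overlap between groups, out of 25 tested members with 7 calls in anagen and 1 in telogen. Also called in anagen were Dsg1b, a desmoglein (1.04, lost without anagen 1 or anagen 2, up to 0.0657) and Dsg2, a desmoglein (0.82, held only without telogen 1, up to 0.14).

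Of 25 keratins tested, 5 were higher in anagen and 1 in telogen. Krt17 had 10143, 8333 and 7751 in anagen and 1421, 1877 and 1247 in telogen (log2 fold change 2.54 ± 0.21, adjusted p = 4.36e-05), and Krt16 had 336, 335 and 224 against 42.4, 36.7 and 60.7 (log2 fold change 2.66 ± 0.38, adjusted p = 0.00155), both also in the inner bulge and companion layer list, whose sum was higher in every anagen library. Besides Krt28, keratin calls in anagen included Krt25, an inner root sheath keratin (3.25, lost without anagen 1 or anagen 2, up to 0.123) and Krt27, an inner root sheath keratin (4.09, lost without anagen 1 or anagen 2, up to 0.114). On the telogen side was Krt24, a type I keratin (-1.02, held only without anagen 3 or telogen 1, up to 0.133).

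**Figure D4:**
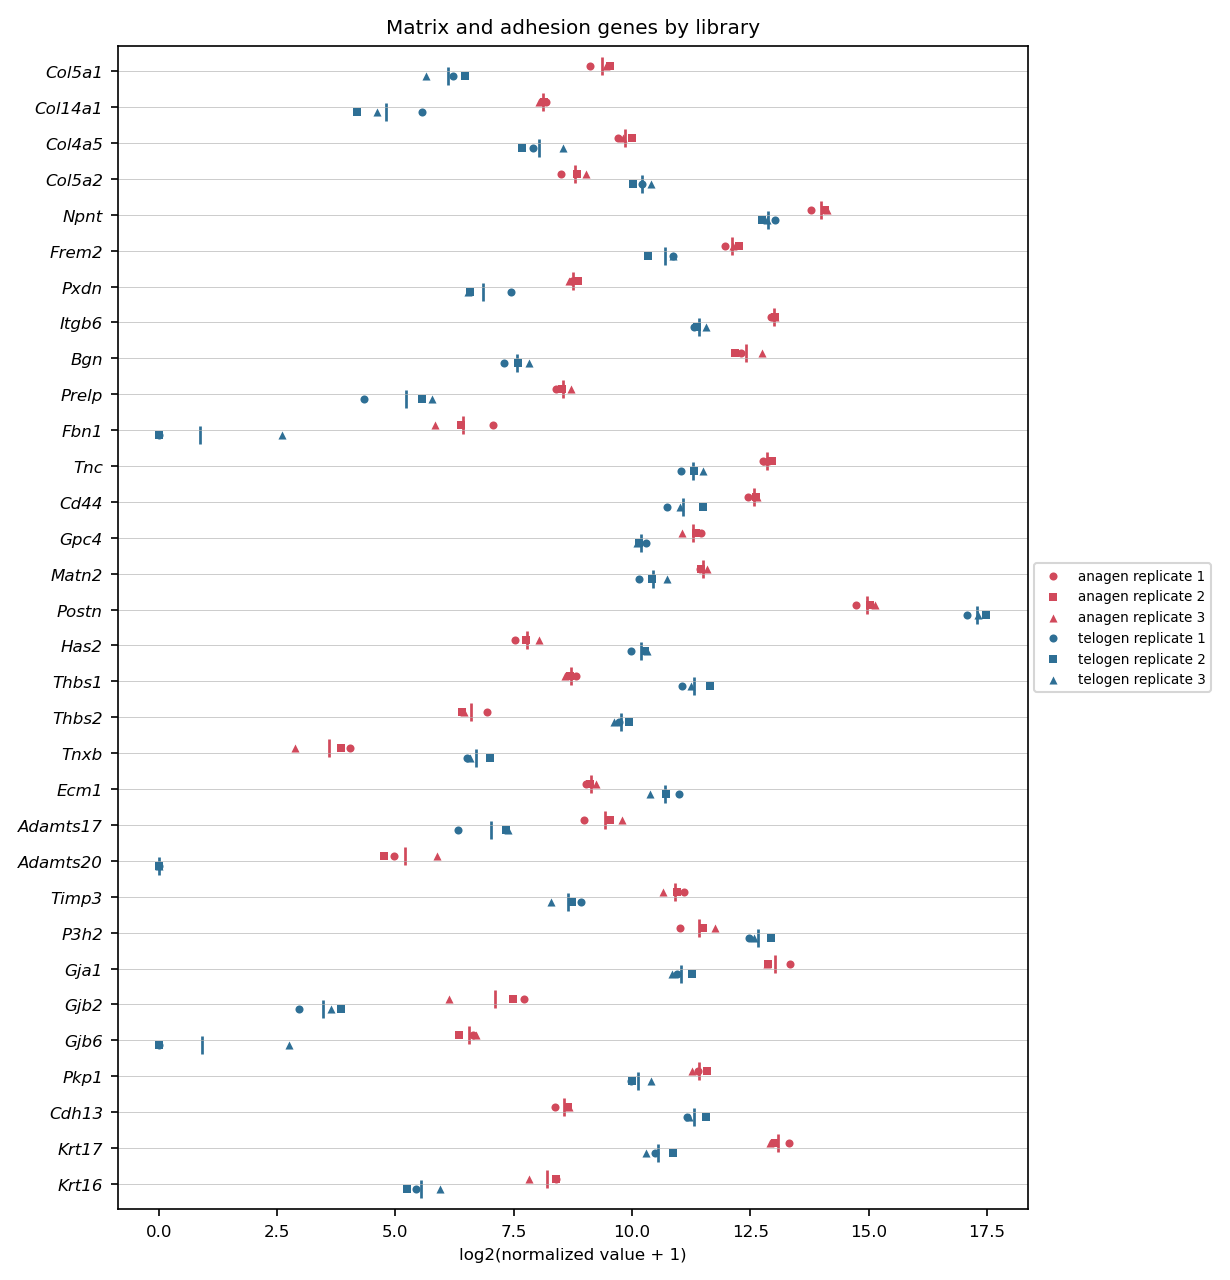
Log2(normalized value + 1) of matrix, protease, junction and keratin genes in each library, anagen in red and telogen in blue, with a short bar at the group mean. No gene drawn has overlapping groups; Adamts20 is at 0 in all telogen libraries.

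Glycolytic genes leaned to anagen: 9 of 39 tested were called higher there and 2 in telogen, and 29 had a positive fold change (median 0.51). Pfkfb3, which makes the activator of phosphofructokinase, had 543, 413 and 409 in anagen and 124, 61.99 and 70.8 in telogen (log2 fold change 2.45 ± 0.35, adjusted p = 0.00153). The glycolytic enzymes Eno1, with 2929, 2247 and 2070.5 against 182, 798 and 620.0 (log2 fold change 2.41 ± 0.45, adjusted p = 0.00625), and Pgk1, with 2922, 2448 and 2514 against 883, 1291 and 808 (log2 fold change 1.43 ± 0.22, adjusted p = 0.00247), were higher as well, as was the monocarboxylate transporter Slc16a7 at 2000.4, 1872 and 1789 against 442, 631 and 953 (log2 fold change 1.55 ± 0.27, adjusted p = 0.00457). These 4 calls were kept and their groups did not overlap. Other enzymes and transporters in anagen were Slc16a1, the lactate transporter MCT1 (2.18, lost without anagen 1 or anagen 2, up to 0.0674) and Pdk3, a pyruvate dehydrogenase kinase (1.07, held only without telogen 2, up to 0.135). In telogen they were Eno3, the muscle enolase (-1.82, held only without telogen 1, up to 0.0906) and Pdk2, a pyruvate dehydrogenase kinase (-1.73, held only without anagen 3, up to 0.166). Ldha, lactate dehydrogenase A, had 6756, 5260.4 and 5170.1 against 1633, 5097 and 2974, no overlap, and an adjusted p of 0.09, and the glucose transporter Slc2a1 had a log2 fold change of 0.55 ± 0.26 (adjusted p = 0.194). The E-box CACGTG, bound by Myc, Hif and clock proteins, occurred in 7 of 36 promoters of the list and in 11.2% of all tested promoters. Of the called members with a promoter at hand, Pfkfb3 and Slc16a1, higher in anagen, and Pdk2, higher in telogen, held it. The Pfkfb3 promoter had it 53 bases upstream of the start, in capitals here (chr2:11502091-11502190, minus strand).
Pfkfb3: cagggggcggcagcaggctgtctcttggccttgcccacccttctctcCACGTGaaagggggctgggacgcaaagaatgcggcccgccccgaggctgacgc

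Redox genes were led by Gclc, the rate-limiting subunit for glutathione synthesis, with 4232, 4178 and 3611 in anagen and 1063, 1300.4 and 1187 in telogen (log2 fold change 1.76 ± 0.18, adjusted p = 0.000193), and Txnrd1, thioredoxin reductase, with 666, 439.7 and 549 against 133, 47.4 and 129 (log2 fold change 2.53 ± 0.41, adjusted p = 0.0032). Both were higher in every anagen library, while the list as a whole had a median of -0.09, with 5 of 34 called higher in anagen and 1 in telogen. The less stable calls were Pgd, an oxidative enzyme of the pentose phosphate pathway (1.15, held only without telogen 2 or telogen 3, up to 0.16), Tkt, transketolase (1.03, held only without telogen 1, up to 0.164) and Prdx2, a peroxiredoxin (0.81, held only without telogen 1 or telogen 2, up to 0.145). Called in telogen was Gsta3, a glutathione transferase (-2.40, held only without telogen 2 or telogen 3, up to 0.0813). In the tricarboxylic acid cycle list, Idh1, the cytosolic isocitrate dehydrogenase, had 2434, 2179 and 2786 against 563, 626 and 951 (log2 fold change 1.82 ± 0.24, adjusted p = 0.000814), and Me3, a mitochondrial malic enzyme, had 135, 113 and 174 against 640.5, 348 and 427 (log2 fold change -1.71 ± 0.33, adjusted p = 0.00735), higher in telogen. The list further held Me2, a mitochondrial malic enzyme (1.01, held only without telogen 1 or telogen 2, up to 0.141). Nuclear genes of oxidative phosphorylation gave 1 call in each direction of 72 tested (median 0.18), below the share over all genes. The calls were Atp5b, the β-subunit of ATP synthase (1.19, held only without telogen 1 or telogen 2, up to 0.154) and Ndufb4, a complex I subunit (-1.44, held only without telogen 2, up to 0.162). The 13 mitochondrial encoded subunits (median -0.17) and the 21 fatty acid oxidation enzymes (median -0.12) had none.

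Cholesterol synthesis gave 7 calls in anagen and 0 in telogen of 27 tested, with the highest median of the metabolic lists (0.76) and 23 positive fold changes. Hmgcs1, which condenses the first branch intermediate, had 3894, 3263 and 2702 in anagen and 1622, 1393 and 1282 in telogen (log2 fold change 1.19 ± 0.20, adjusted p = 0.00402), and Stard4, a sterol carrier, had 1124, 1147 and 1149 against 431, 547 and 548 (log2 fold change 1.17 ± 0.21, adjusted p = 0.00547). Both calls were kept, and the groups did not overlap. Further called sterol enzymes were Cyp51, a sterol demethylase (1.37, lost without anagen 1 or anagen 2, up to 0.107), Idi1, isopentenyl diphosphate isomerase (1.21, lost without anagen 1 or anagen 2, up to 0.0734) and Fdft1, squalene synthase (1.09, lost without anagen 1 or anagen 2 or anagen 3, up to 0.0902). Scd2, which desaturates fatty acids, had 4143, 3954 and 3472 in anagen and 244, 499 and 582 in telogen (log2 fold change 3.21 ± 0.30, adjusted p = 9.8e-05), a kept call among the 32 tested genes of fatty acid and lipid synthesis, of which 3 were higher in anagen and 1 in telogen. In that list were also Fads1, a desaturase (1.49, held only without telogen 2, up to 0.126), Fasn, fatty acid synthase (1.20, lost without anagen 1 or anagen 2, up to 0.0884) and Cers4, a ceramide synthase (-1.02, lost without anagen 1 or anagen 2 or anagen 3, up to 0.085). The sterol element TCACNCCAC, at which SREBP proteins bind, was found in 1 of 19 list promoters, that of Hmgcs1, and in 1.4% of all. It lay 137 bases upstream of the Hmgcs1 start, its fixed letters in capitals (chr13:119690191-119690290, plus strand).
Hmgcs1: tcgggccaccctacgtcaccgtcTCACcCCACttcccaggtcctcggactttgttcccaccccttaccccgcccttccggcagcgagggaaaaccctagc

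Serine, folate and nucleotide synthesis had 12 of 41 tested members called higher in anagen and 0 in telogen, 7 of which kept their calls. Mthfd2, the mitochondrial folate enzyme, had 103, 96.7 and 89.8 in anagen and 1.40, 2.37 and 5.89 in telogen (log2 fold change 4.67 ± 0.64, adjusted p = 0.00113). Psat1, of serine synthesis, had 1899.9, 1573 and 1339 against 382, 725 and 472 (log2 fold change 1.64 ± 0.27, adjusted p = 0.00316). The enzymes that supply deoxynucleotides, Rrm1, with 2662, 2667 and 1758 against 605, 619 and 636 (log2 fold change 1.90 ± 0.22, adjusted p = 0.000366), and Dck, with 530.3, 442 and 351 against 77.7, 126 and 117 (log2 fold change 2.04 ± 0.33, adjusted p = 0.0028), were higher too, as were Rrm2 and Tyms (log2 fold changes 1.58 and 1.97). Not kept were Mthfd1l, a mitochondrial folate enzyme (2.26, held only without anagen 3 or telogen 1, up to 0.165), Cad, the first enzyme complex of pyrimidine synthesis (2.23, lost without anagen 1 or anagen 2, up to 0.0693) and Nme1, a nucleoside diphosphate kinase (1.92, lost without anagen 1 or anagen 3, up to 0.0636). Many of these enzymes serve DNA replication, so the list overlaps in function with cell division.

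Polyamine genes did not move as a unit. Odc1, the rate-limiting enzyme of the pathway, was higher in telogen at 3191, 2741 and 2567 in anagen and 6272, 8128 and 4916 in telogen (log2 fold change -1.16 ± 0.21, adjusted p = 0.00589), whereas Sms, spermine synthase, was higher in anagen at 3571, 2666 and 2585 against 875, 1033 and 701 (log2 fold change 1.76 ± 0.22, adjusted p = 0.000642). The cationic amino acid transporters Slc7a1, with 1250.4, 1227 and 983 against 371, 443 and 167 (log2 fold change 1.92 ± 0.34, adjusted p = 0.00504), and Slc7a2, with 2417, 1802 and 1676 against 265, 440.5 and 453 (log2 fold change 2.37 ± 0.26, adjusted p = 0.000316), were higher in anagen. The groups did not overlap for these 4 genes, and their calls were kept. The calls that were not kept were Slc7a5, the large neutral amino acid transporter LAT1 (2.69, held only without telogen 1 or telogen 2, up to 0.0989), Azin1, which protects Odc1 from breakdown (1.63, lost without anagen 1 or anagen 2, up to 0.0634) and Slc43a1, a neutral amino acid transporter (-1.42, lost without anagen 1 or anagen 2, up to 0.0784).

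The machinery of translation showed small values. None of 77 cytoplasmic ribosomal proteins was called (median 0.08). Of 37 ribosome biogenesis factors, 34 had positive fold changes (median 0.54), 5 were called in anagen and none kept its call. Dkc1, the pseudouridine synthase dyskerin, had 3266, 2441 and 1977 against 1166, 1297 and 1120.3 (log2 fold change 1.07 ± 0.22, adjusted p = 0.0104, but 0.0718 without anagen 1). The others called were Nop16, a nucleolar protein (1.74, lost without anagen 1 or anagen 3, up to 0.0838) and Ltv1, a factor for small subunit maturation (1.01, lost without anagen 1 or anagen 2 or telogen 3, up to 0.133). So were Nop58, a core protein of C/D snoRNPs (1.01, lost without anagen 1, up to 0.0511) and Ncl, nucleolin (0.99, lost without anagen 1 or anagen 3, up to 0.0821). Among 20 tRNA synthetases 19 were positive (median 0.49) and 1 was called, Tars, the threonyl-tRNA synthetase (0.90, held only without telogen 1, up to 0.139).

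Of 34 tested genes of the unfolded protein response and heat shock, 6 were called higher in anagen and 0 in telogen, and 4 of the 6 act in the endoplasmic reticulum. Hspa5, encoding BiP, the main chaperone of that compartment, had 20990.1, 20497 and 17047 in anagen and 4245, 10344 and 5696 in telogen (log2 fold change 1.62 ± 0.28, adjusted p = 0.00466), and Pdia4, a disulfide isomerase, had 1347, 1247 and 1018 against 311, 393 and 640.3 (log2 fold change 1.48 ± 0.28, adjusted p = 0.00735). Hsp90b1 had 23482, 20358 and 23587 against 9894, 14280.0 and 10529 (log2 fold change 0.97 ± 0.19, adjusted p = 0.0089, but 0.0512 without anagen 1). Chaperones outside the compartment, the mitochondrial Hspd1 (1.01 ± 0.19, adjusted p = 0.00682) and the cytosolic Dnaja1 (1.15 ± 0.22, 0.0082), were higher as well. The chaperones Calr (0.33 ± 0.22, adjusted p = 0.374) and Canx (0.50 ± 0.19, 0.118) of the endoplasmic reticulum did not pass. Within the compartment there was also Dnajb9, a cochaperone of BiP (1.19, held only without telogen 2, up to 0.149). The ER stress element, CCAAT followed after 9 bases by CCACG, occurred in 7 of 28 promoters of this list and in 0.15% of all tested promoters. The stretches for Hspa5 (chr2:34771990-34772089, plus strand) and Hsp90b1 (chr10:86705515-86705664, minus strand) are given with the fixed letters of the element in capitals, 65 bases upstream in Hspa5 and 212 and 107 bases upstream in Hsp90b1, where the second match is on the other strand. Of the 7 genes whose promoter held the element, only Hspa5 and Hsp90b1 were called.
Hspa5: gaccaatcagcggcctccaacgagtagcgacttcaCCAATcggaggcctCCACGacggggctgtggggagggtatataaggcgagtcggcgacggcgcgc
Hsp90b1: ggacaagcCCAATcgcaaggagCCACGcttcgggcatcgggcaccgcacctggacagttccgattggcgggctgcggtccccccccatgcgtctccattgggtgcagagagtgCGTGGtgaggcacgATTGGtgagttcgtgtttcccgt

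**Figure D5:**
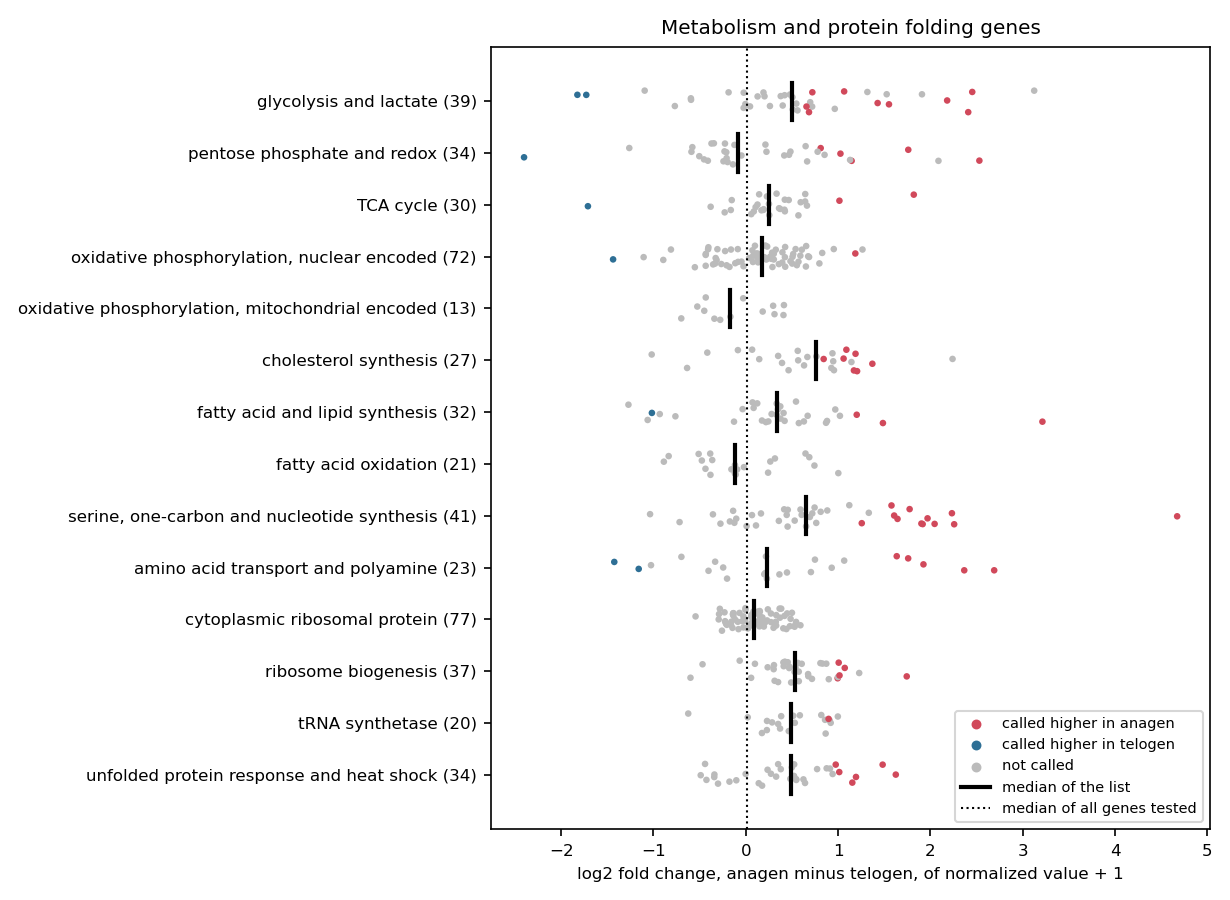
Log2 fold change, anagen minus telogen, of every tested gene in the metabolism and protein folding lists, called genes in red (anagen) or blue (telogen) and others in grey, with the list median as a black bar and the median of all genes tested (0.0127) dotted. Cholesterol synthesis has the median farthest to the right (0.76), and ribosomal proteins lie close to the dotted line.

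Of 17 tested factors that define the bulge, 1 was called higher in anagen and 1 in telogen. Trp63, the master regulator of stratified epithelia, had 29289.5, 30368 and 28812 in anagen and 12924, 17571 and 16855 in telogen (log2 fold change 0.91 ± 0.18, adjusted p = 0.00935, but 0.0538 without anagen 2), and Foxp1, a brake on stem cell activation, had a log2 fold change of -0.55 ± 0.20 (adjusted p = 0.104). Among 24 factors of hair matrix and lineage fate, Sox4 had 102, 95.6 and 622 in anagen and 1.94, 6.67 and 7.60 in telogen (log2 fold change 4.99 ± 0.78, adjusted p = 0.00269), its anagen value resting most on replicate 3. Without that library its log2 fold change was 4.11, and it stayed called. Msx2, a matrix factor, was higher in telogen at 151, 104 and 144 against 469, 434 and 315 (log2 fold change -1.60 ± 0.31, adjusted p = 0.00806). Others of this list called in anagen were Dlx1, a homeobox factor (3.0, lost or, with fewer libraries, filtered out in 6 of 6 fits, up to 0.154), Dlx2, a homeobox factor (1.66, lost without anagen 1 or anagen 2 or anagen 3, up to 0.102) and Trps1, a repressor of the GATA type (0.85, lost without anagen 2 or anagen 3, up to 0.0837). Of the Sox factors, a second call was Sox13, a SoxD factor (2.92, held only without telogen 3, up to 0.134). Gli3, given with the Hedgehog genes, was the bulge factor called in telogen.

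Hox genes leaned to telogen, with 4 of 26 fold changes positive (median -0.69) and 4 calls, all in the HoxD cluster and higher in telogen. Hoxd8 had 727, 736 and 594 in anagen and 1591, 1616 and 1228 in telogen (log2 fold change -1.10 ± 0.21, adjusted p = 0.00786), and Hoxd4 had 0.796, 0.881 and 0 in anagen and 59.95, 89.5 and 50.9 in telogen (log2 fold change -5.46 ± 0.72, adjusted p = 0.000949). Hoxd4 was near 0 in all anagen libraries. Both kept their calls. Hoxd3 had 0.917, 7.85 and 5.03 against 46.5, 20.4 and 47.3 (log2 fold change -2.97 ± 0.79, adjusted p = 0.0344), which held only without telogen 2 (up to 0.133). Hoxd9 had 3.95, 14.3 and 40.7 against 74.4, 132 and 127 (log2 fold change -2.89 ± 0.73, adjusted p = 0.0283), which held only without anagen 3 or telogen 1 (up to 0.089).

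In the Myc and E2F network 4 of 20 were higher in anagen and 1 in telogen. Mycn, the paralogue of Myc, had 314, 238 and 149.7 in anagen and 7.73, 1.11 and 13.9 in telogen (log2 fold change 5.11 ± 0.72, adjusted p = 0.00139), and Myc itself had 1019, 814 and 834 against 431, 871 and 509 (log2 fold change 0.62 ± 0.28, adjusted p = 0.181). E2f3 had 402, 251 and 285 against 58.8, 53.8 and 67.4 (log2 fold change 2.34 ± 0.35, adjusted p = 0.00202), and Tfdp1, the dimer partner of E2F proteins, had 2182, 1909 and 1464 against 414, 752 and 746 (log2 fold change 1.57 ± 0.27, adjusted p = 0.00467). Mycn, E2f3 and Tfdp1 did not overlap between groups and kept their calls. The calls not kept were those of Mxd3, a partner of Max (3.17, lost without anagen 1 or anagen 3, up to 0.141) and Max, the dimer partner of Myc (-1.08, held only without telogen 1 or telogen 3, up to 0.102). The E2F site TTTGGCGC was present in 19 of 748 promoters of genes called higher in anagen (2.54%), in 0 of 463 of genes higher in telogen and in 1.07% of all tested promoters. The genes called higher in anagen include those of the cell cycle lists, whose part in this share was not tested. Of 16 members of the Myc and E2F list with a promoter, 1 held the site, Mycn. The Mycn promoter held it at 183 and 168 bases upstream, shown in capitals (chr12:12941937-12942036, minus strand).
Mycn: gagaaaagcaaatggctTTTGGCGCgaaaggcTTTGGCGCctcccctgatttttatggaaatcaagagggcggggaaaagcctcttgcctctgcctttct

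The circadian clock turns on activators of the Bmal1 and Clock pair and on repressors that they induce through E-boxes. Of 25 tested clock factors 4 were higher in telogen and 1 in anagen (median -0.29). Tef, an activator that binds D-boxes, had 384, 571 and 379 in anagen and 2438, 3253 and 2023 in telogen (log2 fold change -2.53 ± 0.25, adjusted p = 0.000144), and Nr1d1, the repressor Rev-erbα, had 459, 428 and 421 against 1389, 1736 and 1167 (log2 fold change -1.69 ± 0.22, adjusted p = 0.000895). Per3 had 118, 109 and 114 against 255, 278 and 277 (log2 fold change -1.24 ± 0.30, adjusted p = 0.0233) and held only without telogen 1 or telogen 2 (adjusted p up to 0.0942). Bhlhe40, which represses E-box genes, was higher in anagen at 1124, 1022 and 797 against 185, 365 and 187 (log2 fold change 2.06 ± 0.31, adjusted p = 0.00202). Dbp, from the family of Tef, had a log2 fold change of -1.55 ± 0.48 (adjusted p = 0.0621) and Arntl, encoding Bmal1, of -0.93 ± 0.33 (0.0934). The last call in telogen was Arntl2, a relative of Bmal1 (-1.34, lost without anagen 1 or anagen 2 or anagen 3, up to 0.0692). The hour of collection is not given in the labels. An E-box lay in 5 of 20 clock promoters, among them Tef 127 bases upstream (chr15:81802513-81802612, plus strand), against 11.2% of all. Of the 4 clock genes called in telogen, only Tef held it. The other holders, Bhlhe41, Ciart, Cry1 and Per1, were not called. The D-box TTATGTAA lay in the promoter of Per3 alone in this list, at 205 and 158 bases upstream (chr4:151044786-151044885, minus strand), against 0.705% of all.
Tef: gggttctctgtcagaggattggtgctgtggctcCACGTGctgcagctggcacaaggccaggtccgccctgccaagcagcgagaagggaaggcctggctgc
Per3: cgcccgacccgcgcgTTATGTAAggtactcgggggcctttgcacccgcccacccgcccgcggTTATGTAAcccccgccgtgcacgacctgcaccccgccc

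Immediate early genes, which respond within minutes to growth signals and also to tissue handling, gave 4 calls in anagen and 0 in telogen of 27 tested. Of the 27 fold changes 22 were positive. Their summed values overlapped, at 84190 to 90870 in anagen and from 35440 in telogen 3 to 112300 in telogen 1. Fos had 9087, 9913 and 7691 in anagen and 3092, 3792 and 1826 in telogen (log2 fold change 1.67 ± 0.26, adjusted p = 0.00233), and its groups did not overlap. The less stable early genes were Ier5, an immediate early factor (1.36, lost without anagen 1 or anagen 2, up to 0.0671), Ier2, an immediate early factor (1.35, held only without telogen 1, up to 0.206) and Btg2, an antiproliferative early gene (1.20, lost without anagen 1 or anagen 2, up to 0.0749). Among forkhead factors 5 of 19 were higher in anagen. Foxo1, a target of insulin signalling, had 2368, 2904 and 2758 against 1293, 1087 and 1474 (log2 fold change 1.06 ± 0.20, adjusted p = 0.00623), and Foxm1, a driver of mitosis, had 349, 221 and 243 against 91.02, 4.42 and 11.98 (log2 fold change 3.84 ± 0.84, adjusted p = 0.0142, but up to 0.0711 without anagen 1 or 3). Further forkhead calls were Foxi3, a factor of ectodermal placodes (3.59, lost or, with fewer libraries, filtered out in 5 of 6 fits, up to 0.126), Foxo6, a FoxO factor (3.12, held only without telogen 1 or telogen 3, up to 0.162) and Foxk2, a FoxK factor (0.94, held only without telogen 1 or telogen 2, up to 0.131). Krüppel-like and Gata factors had 2 of 18 higher in anagen and 1 in telogen, none of which was kept. These were Klf13, a Krüppel-like factor (1.13, lost without anagen 2, up to 0.0569), Klf11, a Krüppel-like factor (0.97, held only without telogen 1 or telogen 3, up to 0.126) and Klf3, a Krüppel-like repressor (-0.91, lost without anagen 1 or anagen 2, up to 0.0848).

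CDK inhibitors, p53 targets and D cyclins with their kinases formed a list that gave 7 calls of 25 in anagen and 0 in telogen, and 1 of the 7, Cdkn2c, is a CDK inhibitor. Ccnd2, a D cyclin, had 6243, 4662 and 5286 in anagen and 1436, 2266 and 2075 in telogen (log2 fold change 1.5 ± 0.22, adjusted p = 0.00158), and Cdk4, its kinase, had 2275, 1595 and 1592 against 330.0, 667 and 721 (log2 fold change 1.73 ± 0.30, adjusted p = 0.00489). Sesn3, a sestrin that curbs growth signalling, had 5467, 5159 and 4712 against 1579.6, 2033 and 2573 (log2 fold change 1.34 ± 0.21, adjusted p = 0.00254), and Ccng2, a cyclin of resting cells, had 804, 669.6 and 607 against 161, 109 and 323 (log2 fold change 1.95 ± 0.37, adjusted p = 0.00742), both higher in anagen as well. The inhibitor Cdkn2c had 192, 109 and 145 against 9.41, 29.1 and 1.38 (log2 fold change 4.01 ± 0.81, adjusted p = 0.0103, but 0.061 without anagen 1). Of the p53 targets there was Gadd45g, a stress-induced growth regulator (1.67, lost without anagen 1 or anagen 3, up to 0.0748). Cdkn1c, encoding p57, had 24.2, 52.6 and 6.23 in anagen and 55.3, 306 and 138 in telogen, higher in every telogen library, with a log2 fold change of -2.65 ± 0.79 that missed the threshold (adjusted p = 0.0528), and Cdkn1b, encoding p27, stood at 0.50 ± 0.20 (0.133).

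The genes with the largest fold changes outside the cell cycle lists were led in anagen by Lrat. Pif1, Cep55, Haspin and H2ac15, which serve cell division although no list held them, were among the first 12, with log2 fold changes of 5.79, 5.62, 5.48 and 5.31. Cps1, the carbamoyl phosphate synthetase of the urea cycle, had a value of 0 in every telogen library and of 81.8, 49.1 and 37.4 in anagen (adjusted p = 0.00098). Prr5, a subunit of mTOR complex 2, had 101, 108 and 129 against 2.89, 0 and 1.26 (log2 fold change 5.77 ± 0.71, adjusted p = 0.000552), Fndc1, with fibronectin domains, had 157, 236 and 158 against 0, 9.01 and 3.08 (log2 fold change 5.72 ± 0.80, adjusted p = 0.00133), and Pitpnm3 had 365, 313 and 419.9 against 22.2, 0 and 12.6 (log2 fold change 5.74 ± 0.95, adjusted p = 0.00354). The glutamine transporter Slc38a3 had 62.99, 72.9 and 15.6 against 0.760, 0 and 0 (log2 fold change 5.15 ± 0.87, adjusted p = 0.00385).

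In telogen, the peptide hormone gene Cck had 0, 0 and 1.19 in anagen and 218, 358 and 277 in telogen (log2 fold change -7.75 ± 0.63, adjusted p = 4.43e-05). Grik1, a kainate receptor subunit for glutamate, had 28.6, 17.8 and 25.5 against 667, 893 and 599.7 (log2 fold change -4.86 ± 0.36, adjusted p = 3.01e-05), and Sncg, γ-synuclein, had 3.20, 2.68 and 0 against 82.2, 212 and 113 (log2 fold change -5.67 ± 0.75, adjusted p = 0.00094). All anagen libraries were close to 0 for Cck and Sncg. Ppargc1a, the coactivator of mitochondrial genes PGC-1α, had 9.25, 15.9 and 75.9 in anagen and 254, 448 and 560.1 in telogen (log2 fold change -4.08 ± 0.67, adjusted p = 0.00332). Flt3l, a growth factor of dendritic cells, had 10.8, 17.02 and 4.64 against 94.3, 307 and 111 (log2 fold change -3.81 ± 0.64, adjusted p = 0.00382), and Rapgef3, an exchange factor activated by cyclic AMP, had 3.21, 17.8 and 7.75 against 145, 276 and 45.6 (log2 fold change -3.80 ± 0.77, adjusted p = 0.0101). Serpina9 had 2.83, 2.41 and 0.935 against 34.7, 64.9 and 65.5 (log2 fold change -4.20 ± 0.69, adjusted p = 0.0035), and Mpig6b had 0.735, 3.33 and 0.971 against 36.02, 34.1 and 86.9 (log2 fold change -4.31 ± 0.76, adjusted p = 0.00494). Ccl27b, a chemokine gene, had 0, 0 and 96.6 against 418, 304 and 170.1 (log2 fold change -5.92 ± 1.43, adjusted p = 0.023), which held only without anagen 3 (up to 0.0906). Kiss1r, the kisspeptin receptor, had 3.22, 0 and 3.19 against 21.4, 113 and 18.96 (log2 fold change -3.83 ± 0.94, adjusted p = 0.0249), lost without anagen 1 or anagen 2 or telogen 2 (up to 0.0919). Serpina3b had 0.790, 8.93 and 11.5 against 115, 318 and 13.9 (log2 fold change -3.76 ± 1.09, adjusted p = 0.0484), which held only without telogen 3 (up to 0.172).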

How the data were processed

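RNA of FACS-purified HFSCs was sequenced in 3 anagen and 3 telogen libraries. Per the labels and the methods of the study, 10 ng of total RNA was amplified with the NuGEN Ovation kit, and the submitters' processing notes name kallisto 0.42.5 and DESeq2 3.11. The authors estimated counts against mouse Gencode transcripts with Kallisto and divided them by the DESeq2 size factor of each library, so that the deposited signal is a normalized value for each gene. The deposited log2 fold changes and their standard errors and the deposited p-values are the authors' own comparison of the phases and were not used.

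Between 42.6% and 54.2% of low values in a library were whole multiples of the best fitting unit (within 0.05 of a whole number), so reads could not be recovered and depth is unknown. Genes were filtered with the filterByExpr rule (minimum count 10, minimum total 15). The main test was limma 3.58.1 (R 4.3.3) with an intensity trend on log2(value + 1), with p-values adjusted over all 13457 genes by the method of Benjamini and Hochberg and a threshold of 0.05. The function was tested on a single simulated data set of 13457 genes, with 100 genes altered by 1 and another 100 by 2.5 on the log2 scale. Of those altered by 1, 7% were recovered. At 2.5 it was 68%, and the fit as a whole gave 3 false calls. Most simulated differences of 1 were thus missed. The simulated set held far fewer altered genes than were called in the data, which makes the adjusted threshold stricter. These rates therefore do not carry over to the data. A gene or list without a call is still not shown to be unchanged. Groups came from the sample labels. The comparison, its 62 gene lists and the rule for named genes (in each list the called members with the largest fold changes and a few defining members, and outside the lists the 12 highest and 12 lowest fold changes) were chosen with earlier results of these data known. Promoters of RefSeq (GRCm38.p6) were searched on both strands. Tef and Pfkfb3 had 2 promoters each, and the promoter with the most matches is the one printed. Spry3 and Krt85 were not analysed here, and some list members are counted but not reported by name. Alternatives were a pseudocount of 0.1, no filter, the replicate number as a block, TMM scaling, no intensity trend, each library left out, and the thresholds of the methods.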

Additional observations from a re-analysis of the deposited data

How the results depend on the processing

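The count of genes higher in anagen (971) and that of genes higher in telogen (585) were 892 and 532 with a pseudocount of 0.1, 878 and 492 without the filter, and 965 and 604 with TMM scaling, which moved the median of all genes by -0.00816. Without the intensity trend they fell to 509 and 333, and at the thresholds of the study's methods, an unadjusted p under 0.05 and a log2 fold change beyond 2, they were 448 and 238. With a library left out they ranged from 385 to 1011 and from 205 to 549. The counts without anagen replicates 1, 2 and 3 were 385, 419 and 535 in anagen and 205, 256 and 291 in telogen, and 344 of the 971 and 158 of the 585 genes were called with any 1 of the 6 libraries left out. Some calls kept in these 6 fits ended without the intensity trend. Among them were those of Lgr4, Fstl1, Fgfr2, Efna3, Plxna2, P3h2, Matn2, Eno1, Odc1, Hspa5, Hspd1, Dnaja1 and Foxo1. Same-numbered libraries did not deviate together (correlations of -0.0348, -0.0711 and -0.0294), which cannot settle whether they were prepared together. With the replicate block the counts were 782 and 442, of which 754 and 423 were among the genes called without it. The cause of these shifts was not tested. Depth is unknown, 3 libraries a group limit the precision, and the residual spread was larger in telogen than in anagen for 68.2% of genes (median SD 0.452 against 0.299 on the log2 scale).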

Other observations

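The gene groups that follow were chosen after the values had been seen, and their counts are descriptions. The 8 genes given with their values kept their calls when any 1 of the 6 libraries was left out. Splicing factors leaned to anagen, with 15 of 31 heterogeneous nuclear ribonucleoproteins and SR proteins called higher there, 0 in telogen and a median log2 fold change of 0.90. Hnrnpu, which binds nuclear RNA, had 21096, 21016 and 19794 in anagen and 9179.8, 10543 and 8304 in telogen (log2 fold change 1.15 ± 0.17, adjusted p = 0.00193 by limma), and the splicing factor Srsf7 had 5847, 4961 and 5313 against 2547, 2792 and 2591 (log2 fold change 1.02 ± 0.17, adjusted p = 0.0035). Their libraries did not overlap between the groups.

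Genes of MHC class I presentation leaned to telogen. Of 11 tested heavy chains 5 were called higher in telogen and 0 in anagen, and of 11 genes for peptide loading and the immunoproteasome 2 were. B2m, the shared light chain, had 3196, 2848 and 2932 in anagen and 6209.7, 8508 and 5544 in telogen (log2 fold change -1.15 ± 0.20, adjusted p = 0.00428), and H2-K1, a classical heavy chain, had 1271, 1359.5 and 1206 against 2379, 2546 and 2727 (log2 fold change -0.99 ± 0.18, adjusted p = 0.00544), with no overlap for either gene. Heavy chain genes are close copies of each other, so the split of reads among them is uncertain. Of 25 interferon response genes 5 were called higher in telogen and 2 in anagen. The 2 in anagen were Irf1 and Ifit2. Among those in telogen, Gbp2, a guanylate-binding protein, had 4.73, 0.893 and 2.08 against 46.5, 40.01 and 41.8 (log2 fold change -3.76 ± 0.71, adjusted p = 0.00725).

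Of 27 tested serpins, 8 were called higher in telogen and 1 in anagen. Serpinb10 had 119, 96.3 and 79.8 against 1182, 802 and 463 (log2 fold change -2.96 ± 0.36, adjusted p = 0.000586), and Serpinb11 had 197, 208 and 352 against 713, 906 and 851 (log2 fold change -1.75 ± 0.28, adjusted p = 0.00314). The Serpina3 genes are near-identical copies, among which Serpina3g had 17.6, 21.6 and 9.09 against 248, 155 and 151 (log2 fold change -3.48 ± 0.50, adjusted p = 0.00156).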
